A study of Homo sapiens with 6 samples.

Results

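The genes described here encode the proteins of the cytosolic ribosome. The rule that chose them uses names and no measured value, but earlier results of these data were known. A member is a protein-coding gene whose symbol is RPL or RPS with a number (A, L or X endings allowed), or RPLP0, RPLP1, RPLP2 or RPSA. The RPS6K kinases, RPS27L and copies on the Y chromosome were left out. The rule found 81 genes among the 57820 human genes of the table, 50 with an RPL symbol and 31 with an RPS symbol, on 21 chromosomes. The series measured RNA from HCT116 cells, a widely used line from a human colorectal carcinoma, in 6 samples. In 3 samples the line was the parental one (WT), and in 3 it was DKO1, a derivative of HCT116 with DNMT1 and DNMT3B knocked out. These genes encode the maintenance DNA methyltransferase and a de novo DNA methyltransferase. Both lines grew in the same medium with serum, no other treatment is named, and all DKO1 samples come from 1 derived line. The labels do not say whether replicates were separate cultures, and p-values therefore reflect only how far these samples differ among themselves, possibly for technical reasons.

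Values are TPM, a transcript abundance that corrects for gene length and sums to the same total in every sample, so depth is unknown and no counting interval is given. DNMT1 measured 245, 250.0 and 231 TPM in WT replicates 1 to 3 and 31.1, 30.8 and 46.8 TPM in DKO1 replicates 1 to 3 (log2 fold change -2.73, SE 0.17, adjusted p = 3.59e-05 in limma). DNMT3B measured 8.22, 7.09 and 6.77 TPM in WT replicates 1 to 3 and 4.86, 4.85 and 3.56 TPM in DKO1 replicates 1 to 3 (log2 fold change -0.63, SE 0.17, adjusted p = 0.03 in limma). The epithelial marker EPCAM lay between 371 and 536 TPM in all 6 samples and KRT8 between 142 and 488 TPM, whereas VIL1, CDX1, GPA33 and CDH17, markers of differentiated colon epithelium, stayed below 0.5 TPM. Of the 6 tested genes in this list of 10, CDH1 (E-cadherin) measured 3.54, 2.75 and 2.63 TPM in WT and 9.56, 9.78 and 10.1 TPM in DKO1 and was called higher (log2 fold change 1.45, SE 0.15, adjusted p = 0.000418). CDX2, an intestinal transcription factor, measured 1.38, 1.22 and 1.32 TPM in WT and 0.71, 0.52 and 0.7 TPM in DKO1, reached the filter only through WT and was called lower. EPCAM, KRT8, KRT18 and KRT19 were not called. KRT8 measured 488, 333 and 326 TPM in WT and 256, 142 and 258 TPM in DKO1, without overlap (log2 fold change -0.83, SE 0.27, adjusted p = 0.0543 in limma). With the replicate number as a block in limma, KRT8 (adjusted p = 0.011) and KRT18 (adjusted p = 0.047) were lower, and EPCAM and KRT19 were not called. The part of these markers in the results was not tested. No marker of blood, fibroblast or endothelium in the lists used here exceeded 2.46 TPM, the value of LYZ in DKO1 replicate 3. Mitochondrially encoded genes held 20.1% ± 0.17 (SD, n = 3) of human TPM in WT, and 27.4%, 28.2% and 21.5% in DKO1 replicates 1 to 3. Since TPM are shares of a fixed total, this difference lowers the TPM of all other genes in DKO1, and values without these genes are given beside the summed shares and the medians. A lower TPM cannot tell less RNA of a gene per cell from more RNA of other genes.

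The cytosolic ribosome has a large and a small subunit, and in each ribosome nearly every protein is present once. The acidic stalk proteins RPLP1 and RPLP2, which bind RPLP0 and recruit translation factors, are present in several copies. Messenger RNAs of ribosomal proteins are among the most abundant of a growing cell, and most carry a 5′ terminal oligopyrimidine motif, a C at the first transcribed base followed by a run of C and T (U in the RNA). This motif places their translation under the control of mTOR, through the binding protein LARP1. In mammals a few ribosomal protein genes have retrotransposed or duplicated paralogs, such as RPL10L, RPL39L and RPL3L, whose expression is known mainly from testis (RPL10L, RPL39L) or from striated muscle (RPL3L). Loss of DNA methylation is known to permit expression of many germline genes in cultured cells.

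The start of the transcript is the sequence that most of these genes share outside their coding regions. The first 20 transcribed bases are printed for 4 members that fell in DKO1 with and without the motif (RPS24, RPL26, RPL24 and RPS7), for the abundant RPL39, which was not called, and for the X-linked RPL10 beside its autosomal paralog RPL10L, which was higher in every DKO1 sample. They are from RefSeq on GRCh38.p14, read 5′ to 3′, and capitals mark the leading run of C and T where it begins with C and holds at least 5 bases.
RPL39 (chrX:119791611-119791630, minus strand): CCCTCCTCTTCCTTTCTCCg
RPS24 (chr10:78033863-78033882, plus strand): CTCTTTTCCTCCTTggctgt
RPL26 (chr17:8383174-8383193, minus strand): CTCTTCCCTTTTgcggccat
RPL24 (chr3:101686699-101686718, minus strand): CTTTCTTTTCgccatctttt
RPS7 (chr2:3575260-3575279, plus strand): ctcgcgctgtttccgcctct
RPL10 (chrX:154398377-154398396, plus strand): CTCTTTCCCTTCggtgtggt
RPL10L (chr14:46651762-46651781, minus strand): gagcgcattttgacttcgag
The run covered 19 bases in RPL39, 14 in RPS24, 12 in RPL26 and RPL10 and 10 in RPL24. RPS7 begins with 3 pyrimidines, and RPL10L begins with a purine. Promoter entries existed for 64 of the 81 members. Of these, 46 (71.9%) had, at a listed start on the gene's strand, a C followed by at least 4 bases that are each C or T, compared with 1404 of all 27305 symbols in the table (5.14%). A listed start is an annotation and was not measured in these cells.

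The 250 bases before the RPL10L start are printed because this gene was near 0 TPM in WT and several TPM in every DKO1 sample, with every CG pair in capitals (GRCh38.p14).
RPL10L (chr14:46651782-46652031, minus strand): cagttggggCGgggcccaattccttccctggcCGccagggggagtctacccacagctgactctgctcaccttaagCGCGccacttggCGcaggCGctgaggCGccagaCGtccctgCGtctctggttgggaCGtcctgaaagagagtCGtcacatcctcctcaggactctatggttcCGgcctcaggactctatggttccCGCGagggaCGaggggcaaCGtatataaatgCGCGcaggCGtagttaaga
This stretch holds 19 CG pairs, and the window of 300 bases around the start (250 before and 50 after) holds 25. The median was 25 over the matched members and 13 over all symbols, and 31.3% of all symbols had at least as many CG pairs as RPL10L. Methylation was not measured in these files.

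Ribosomal protein mRNA as a whole held a smaller share of TPM in these DKO1 samples than in the WT samples. The members together held 12.9%, 11.6% and 13.0% of human TPM in WT replicates 1 to 3, and 10.7%, 8.33% and 10.8% in DKO1 replicates 1 to 3. The means were 12.5% ± 0.80 and 9.96% ± 1.41 (SD, n = 3 each), a difference of -2.54 percentage points. The groups did not overlap, and DKO1 was lower within each replicate number, but the exact two-sided permutation test gave p = 0.1, the smallest that 3 against 3 samples allow. When the mitochondrially encoded genes and the spike-ins were dropped before rescaling, the shares were 16.1%, 14.5% and 16.3% in WT and 14.8%, 11.6% and 13.8% in DKO1. Then the highest DKO1 sample lay above the lowest WT sample (exact permutation p = 0.2). Pairing the samples by replicate number gave p = 0.25 in the exact sign-flip permutation test, the smallest that 3 pairs allow.

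**Figure D1:**
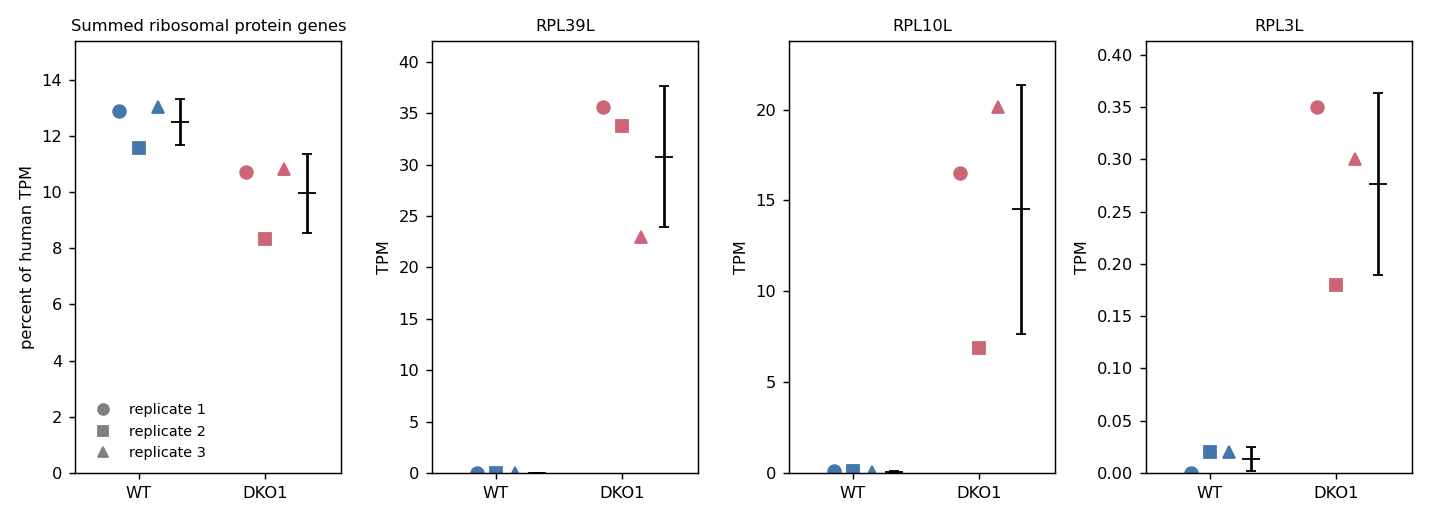
Percent of human TPM held by all ribosomal protein genes (first panel) and TPM of the paralogs RPL39L, RPL10L and RPL3L (other panels) in each of the 6 samples, with symbols for the replicate number and bars for the group mean and SD. The summed share lay between 11.6% and 13.0% in WT and between 8.33% and 10.8% in DKO1, whereas RPL39L was listed at 0 in WT and reached 35.6 TPM in DKO1.

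Large subunit genes without the stalk held 7.26%, 6.65% and 7.34% of human TPM in WT and 5.92%, 4.67% and 6.04% in DKO1. Small subunit genes held 5.51%, 4.84% and 5.57% in WT and 4.68%, 3.60% and 4.66% in DKO1. Neither pair of groups overlapped (exact permutation p = 0.1 for each). With mitochondrially encoded genes left out of the total, an alternative added after the data were seen, the large subunit groups still did not overlap (8.87% ± 0.49 in WT and 7.46% ± 0.85 in DKO1, SD, n = 3 each, exact permutation p = 0.1). The small subunit groups then overlapped, at 6.90%, 6.05% and 6.99% in WT and 6.46%, 5.02% and 5.94% in DKO1 (exact permutation p = 0.2). The stalk genes held 0.102% ± 0.022 in WT and 0.0959% ± 0.0406 in DKO1 (SD, n = 3 each), and these groups overlapped (exact permutation p = 0.9).

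Of the 81 members, 80 reached at least 1 TPM in at least 3 samples and were tested with limma on log2(TPM + 1), among 13604 genes in all. RPL3L did not pass, and RPL39L and RPL10L passed only through their DKO1 values, so their calls as higher below are a description. In DKO1, 12 members were lower and 2 were higher (adjusted p below 0.05), and 66 were not called. Of all tested genes, 9.6% were called lower and 18.8% were called higher. The estimated change was below 0 for 74 members and above 0 for 6, with a median log2 fold change of -0.31, where the median over all tested genes was 0.07. SEs ran from 0.096 to 0.67. Of the 80 tested members, 23 had all DKO1 values below all WT values, 2 had all above and 55 overlapped, against 17.8% lower and 27.5% higher without overlap over all tested genes.

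**Figure D2:**
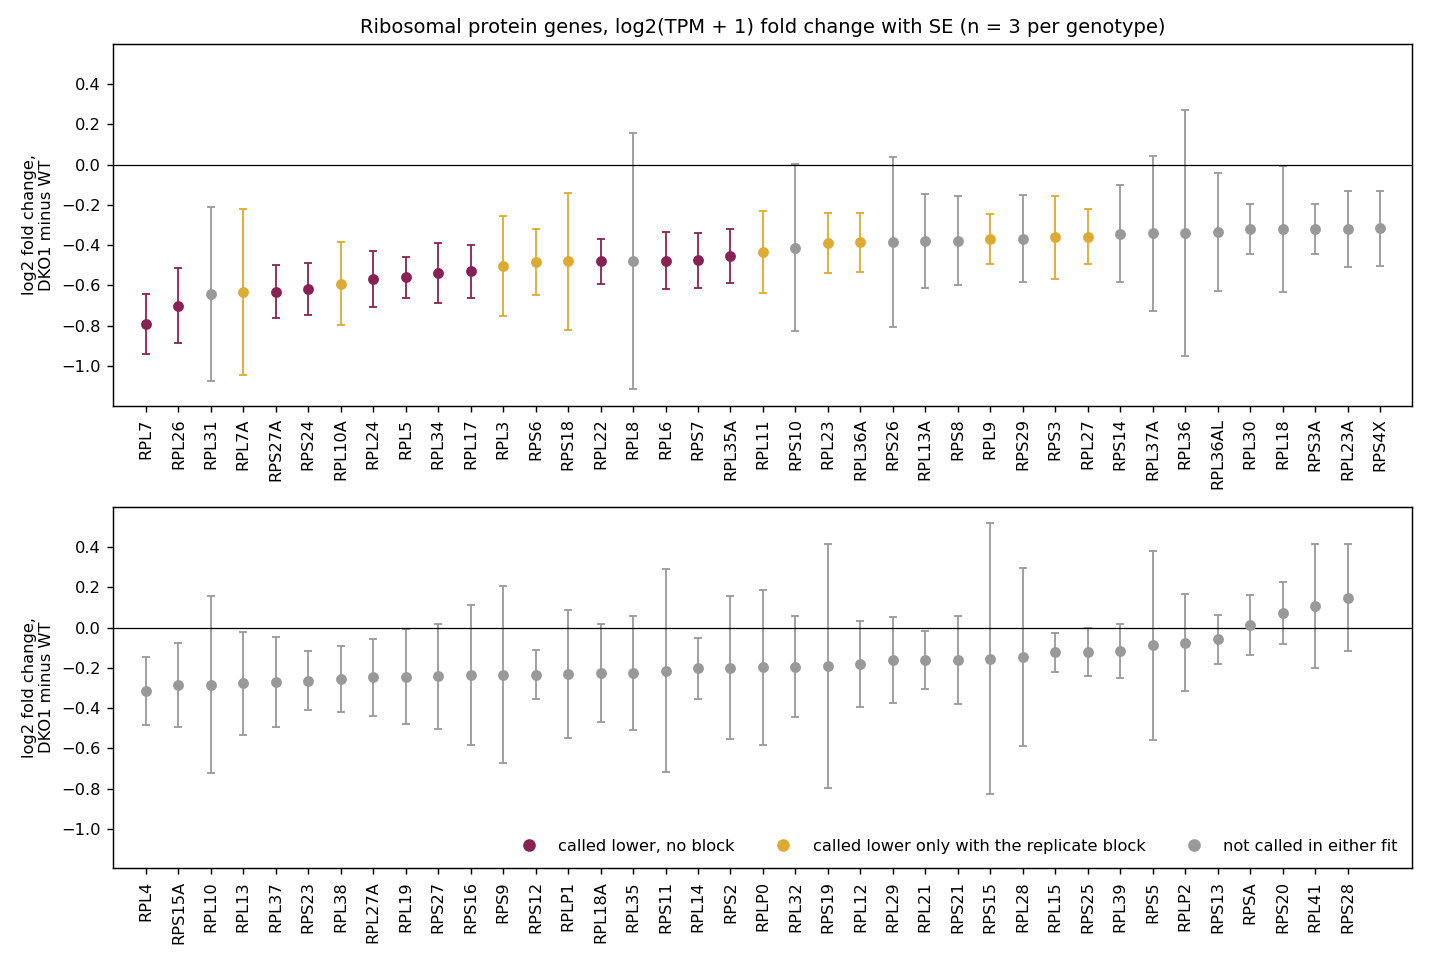
Log2 fold change (DKO1 minus WT, on the log2(TPM + 1) scale) with its SE for 77 ribosomal protein genes, in the order of their estimates and coloured by call. RPL39L, RPL10L and RPL3L are not among them. Of these points 73 lie below 0, and the SE is largest for RPS15, at 0.67.

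Same-numbered samples of the 2 groups deviated together over all tested genes, so the fit was also made with the replicate number as a block. The labels name no pairing, and over the members only replicate 2 stood apart from the other numbers. With the block, 23 members were lower, including all 12 of the fit without it, and 2 were higher, against 13.4% and 22.4% of all tested genes. The members that were lower only with the block were RPL7A, RPL10A, RPL3, RPS6, RPS18, RPL11, RPL23, RPL36A, RPL9, RPS3 and RPL27. The number of the 80 members called lower was 4, 4 and 2 without WT replicate 1, 2 or 3, and 4 without DKO1 replicate 1. Of all tested genes, 4.44%, 3.85%, 4.04% and 6.19% were lower in these 4 fits, so the members were near the share of all genes there. Without DKO1 replicate 2 the number was 9 (8.54% of all tested genes). The median log2 fold change then moved to -0.07 (all tested genes 0.13), with 48 members below 0 and 32 above. Without DKO1 replicate 3, 18 members were lower (15.3% of all tested genes).

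The scale on which samples are compared also moved the median. It was -0.39 (all tested genes 0.01) after median-ratio scaling, -0.16 (all tested genes -0.07) after quantile normalization, and -0.20 (all tested genes 0.17) with mitochondrially encoded genes and spike-ins dropped. Members below 0 numbered 76, 66 and 71 of 80 under these scales.

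Levels differed widely between members, although the proteins enter the ribosome in nearly equal numbers. Among the 78 members above 1 TPM in WT, group means ran from 4.67 TPM for RPS28 to 7408 TPM for RPS24, 1586-fold. In WT, 43 members averaged at least 1000 TPM and 7 averaged between 1 and 100 TPM. RPS24, RPL39, RPL7, RPS3A, RPS27 and RPL21 had the highest means over all 6 samples. Estimates of similar size could differ in precision: RPL31 had a log2 fold change of -0.64 but an SE of 0.43, and was not called (adjusted p = 0.308).

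RPS24, a small subunit protein whose gene is mutated in some patients with Diamond-Blackfan anaemia, measured 7169, 7427 and 7628 TPM in WT replicates 1 to 3 and 4459, 4716 and 5342 TPM in DKO1 replicates 1 to 3. All DKO1 samples lay below all WT samples (log2 fold change -0.62, SE 0.13, adjusted p = 0.0105). RPL7, of the large subunit, measured 6010.1, 6073 and 6350.1 TPM in WT replicates 1 to 3 and 3239, 3233 and 4285 TPM in DKO1 replicates 1 to 3. It had the largest fall among the called members (log2 fold change -0.79, SE 0.15, adjusted p = 0.00703), and its groups did not overlap. RPL26, a large subunit protein also known to bind p53 mRNA, measured 4732, 4012 and 4689.5 TPM in WT replicates 1 to 3 and 2914, 2122 and 3349 TPM in DKO1 replicates 1 to 3. The lowest value was that of DKO1 replicate 2, and the groups did not overlap (log2 fold change -0.70, SE 0.19, adjusted p = 0.0286).

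RPL39, a very small protein at the exit tunnel of the large subunit, measured 5159, 5765 and 5540.5 TPM in WT replicates 1 to 3 and 5385, 5424 and 4439 TPM in DKO1 replicates 1 to 3. Its groups overlapped and it was not called (log2 fold change -0.12, SE 0.14, adjusted p = 0.57). RPS3A measured 4994, 5026 and 4905 TPM in WT replicates 1 to 3 and 4255, 4189 and 3555 TPM in DKO1 replicates 1 to 3, with all DKO1 samples lower but no call (log2 fold change -0.32, SE 0.12, adjusted p = 0.0972). RPS27, a zinc finger protein of the small subunit, measured 5076, 3634 and 5267 TPM in WT replicates 1 to 3 and 4694, 2661 and 4693 TPM in DKO1 replicates 1 to 3. Replicate 2 was the lowest in both groups for RPS27, and the difference was within the spread (log2 fold change -0.24, SE 0.26, adjusted p = 0.531). RPL21, the member with the most annotated pseudogenes, measured 3854, 4360.1 and 4156 TPM in WT replicates 1 to 3 and 3725, 4233 and 3163 TPM in DKO1 replicates 1 to 3. Here replicate 2 was the highest in both groups, and RPL21 was not called (log2 fold change -0.16, SE 0.14, adjusted p = 0.446).

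Of the 12 members that fell, 9 were of the large subunit, which has 46 of the 80 tested members. RPS27A, which encodes ubiquitin fused to a small subunit protein, measured 3536, 3415 and 3764 TPM in WT replicates 1 to 3 and 2233, 2069 and 2644 TPM in DKO1 replicates 1 to 3 (log2 fold change -0.63, SE 0.13, adjusted p = 0.011). RPL24, which lies at the interface of the subunits, measured 2055, 1941 and 2164 TPM in WT replicates 1 to 3 and 1438, 1167 and 1579 TPM in DKO1 replicates 1 to 3 (log2 fold change -0.57, SE 0.14, adjusted p = 0.0214). In both genes every DKO1 sample was below every WT sample. RPL34 measured 1963, 1785 and 1967 TPM in WT replicates 1 to 3 and 1347, 1085 and 1542 TPM in DKO1 replicates 1 to 3 (log2 fold change -0.54, SE 0.15, adjusted p = 0.0336). RPL17, near the exit tunnel, measured 3018, 2914 and 3079 TPM in WT replicates 1 to 3 and 2186, 1783 and 2308 TPM in DKO1 replicates 1 to 3 (log2 fold change -0.53, SE 0.13, adjusted p = 0.0227). These groups were also apart, with replicate 2 the lowest in each.

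RPL22, known for binding RNAs outside the ribosome, measured 822, 763 and 807 TPM in WT replicates 1 to 3 and 571, 516 and 632 TPM in DKO1 replicates 1 to 3 (log2 fold change -0.48, SE 0.11, adjusted p = 0.0178). RPL6, RPS7 and RPL35A had smaller falls, with log2 fold changes of -0.48, -0.48 and -0.45 and adjusted p of 0.0412, 0.0369 and 0.0399. The calls of these 3 genes were lost in 10 of 19 alternative analyses, whereas RPL7 kept its call in all 19. Leaving out any WT replicate or DKO1 replicate 1 ended the calls of RPL26, RPL24, RPL34, RPL17, RPL6, RPS7 and RPL35A, and leaving out DKO1 replicate 2 those of RPL6, RPS7 and RPL35A. RPL22 was not called when any of the 3 WT replicates was left out, RPS24 not without WT replicate 3 or DKO1 replicate 1, and RPS27A not without WT replicate 3. The highest adjusted p of a member that fell was 0.145, for RPL35A, over all alternatives. By location, 9 of 46 tested large subunit genes, 3 of 31 small subunit genes and 0 of 3 stalk genes were lower (17, 6 and 0 with the block). Of all tested genes, 9.6% were lower (13.4% with the block), and the small subunit count without the block is near that share. At an unadjusted p below 0.05, 20 members were lower, none of them in the stalk. The difference between the subunits was not tested.

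RPL5, RPL11 and RPL23 bind MDM2 when ribosome assembly is disturbed, which stabilises p53. RPL5 measured 2293, 2241 and 2221 TPM in WT replicates 1 to 3 and 1482, 1478 and 1623 TPM in DKO1 replicates 1 to 3, with little spread within either group and no overlap (log2 fold change -0.56, SE 0.10, adjusted p = 0.0066). RPL11 measured 1617, 1334 and 1598 TPM in WT replicates 1 to 3 and 1189, 831 and 1415 TPM in DKO1 replicates 1 to 3. Replicate 2 was the lowest in both groups, and RPL11 was not called without the block (log2 fold change -0.43, SE 0.20, adjusted p = 0.154, and adjusted p = 0.0321 with it). RPL23 measured 1316, 1212 and 1321 TPM in WT replicates 1 to 3 and 1022, 803 and 1146 TPM in DKO1 replicates 1 to 3, with no overlap and no call (log2 fold change -0.39, SE 0.15, adjusted p = 0.0928, and adjusted p = 0.0329 with the block).

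RPS6, the small subunit protein phosphorylated by S6 kinases downstream of mTOR, measured 2265, 1963 and 2223 TPM in WT replicates 1 to 3 and 1596, 1242 and 1824 TPM in DKO1 replicates 1 to 3 (log2 fold change -0.48, SE 0.16, adjusted p = 0.0617). With the block its adjusted p was 0.0153. RPS14, the gene in the deleted region of 5q- syndrome, measured 580.2, 444 and 508 TPM in WT replicates 1 to 3 and 512, 271 and 462 TPM in DKO1 replicates 1 to 3. Its groups overlapped, and it was not called (log2 fold change -0.34, SE 0.24, adjusted p = 0.332). RPS19, the gene most often mutated in Diamond-Blackfan anaemia, measured 286, 139 and 255 TPM in WT replicates 1 to 3 and 268, 67.7 and 374 TPM in DKO1 replicates 1 to 3. DKO1 replicate 2 was the lowest and DKO1 replicate 3 the highest of the 6 samples, and no difference was resolved (log2 fold change -0.19, SE 0.61, adjusted p = 0.844).

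RPSA, of the small subunit and also known as the laminin receptor precursor, measured 2249, 2041 and 2258 TPM in WT replicates 1 to 3 and 2669.9, 1948 and 2042 TPM in DKO1 replicates 1 to 3. Its estimate was close to 0 (log2 fold change 0.01, SE 0.15, adjusted p = 0.961). RPLP0, the base of the stalk, measured 925, 562 and 863 TPM in WT replicates 1 to 3 and 872, 355 and 961 TPM in DKO1 replicates 1 to 3 (log2 fold change -0.20, SE 0.39, adjusted p = 0.743). The acidic protein gene RPLP1 measured 95.5, 69.6 and 103 TPM in WT replicates 1 to 3 and 81.4, 45.9 and 113 TPM in DKO1 replicates 1 to 3 (log2 fold change -0.23, SE 0.32, adjusted p = 0.631). For RPLP2 the values were 149, 124 and 134 TPM in WT and 148, 85.6 and 166 TPM in DKO1 (log2 fold change -0.07, SE 0.24, adjusted p = 0.846). In all 3 stalk genes DKO1 replicate 2 was the lowest sample and DKO1 replicate 3 exceeded every WT sample.

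FAU, which encodes a ubiquitin-like protein fused to a small subunit protein, has a symbol outside the rule. It measured 139, 97.3 and 135 TPM in WT replicates 1 to 3 and 177, 55.8 and 208 TPM in DKO1 replicates 1 to 3. DKO1 replicate 2 was the lowest and DKO1 replicate 3 the highest of the 6 samples, and FAU was not called (log2 fold change 0.06, SE 0.46, adjusted p = 0.941).

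Only 6 tested members had an estimate above 0: RPL39L and RPL10L, which were called, and RPSA, RPS20, RPL41 and RPS28, which were not. RPL41, the smallest ribosomal protein, measured 1831, 1397 and 1897 TPM in WT replicates 1 to 3 and 2359, 1093 and 2359.7 TPM in DKO1 replicates 1 to 3 (log2 fold change 0.11, SE 0.31, adjusted p = 0.824). RPS28 measured 4.24, 3.76 and 6.01 TPM in WT replicates 1 to 3 and 5.70, 3.38 and 7.13 TPM in DKO1 replicates 1 to 3 (log2 fold change 0.15, SE 0.27, adjusted p = 0.718), and RPS15 31.9, 10.1 and 25.1 TPM in WT replicates 1 to 3 and 24.7, 5.83 and 38.6 TPM in DKO1 replicates 1 to 3 (log2 fold change -0.15, SE 0.67, adjusted p = 0.888). The groups overlapped for all 3. In WT, rows of pseudogenes named after RPL41 and RPS28 held 38.7% and 37.1% of the TPM of gene and pseudogenes together, so the division of reads between copies bears on the levels of these genes.

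The 2 members called higher are both paralogs. RPL39L, on chromosome 3, was listed at 0 in all 3 WT samples and 35.6, 33.8 and 23.0 TPM in DKO1 replicates 1 to 3. No fold change is given against a group listed at 0. Its level in DKO1 was small beside that of RPL39, at 0.597% ± 0.073 (SD, n = 3) of the summed TPM of the pair. RPL10L, on chromosome 14, measured 0.08, 0.08 and 0.05 TPM in WT replicates 1 to 3 and 16.5, 6.89 and 20.1 TPM in DKO1 replicates 1 to 3, with all DKO1 samples far above WT. Because both genes reached the filter only through DKO1, no test from the filtered fit is given for them. The fit without a filter took every gene above 0 TPM in any sample. RPL39L entered that fit, too, only through DKO1, so no test is given for it. RPL10L was above 0 TPM in WT as well, and limma without a filter gave it an adjusted p of 0.00158. RPL10, its X-linked parent gene, measured 703, 408 and 645 TPM in WT replicates 1 to 3 and 615, 226 and 738 TPM in DKO1 replicates 1 to 3 and was not called (log2 fold change -0.28, SE 0.44, adjusted p = 0.676). RPL10L made up 0.013% ± 0.0061 of the pair in WT and 2.74% ± 0.19 in DKO1 (SD, n = 3 each), and the DKO1 shares of 2.61%, 2.96% and 2.65% were closer together than its TPM.

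RPL3L, on chromosome 16, measured 0, 0.02 and 0.02 TPM in WT replicates 1 to 3 and 0.35, 0.18 and 0.3 TPM in DKO1 replicates 1 to 3. The DKO1 values were higher than the WT values in every sample, but all lay below the filter, so the filtered fit did not test RPL3L. The fit without a filter included it, and called 3 of 81 members higher, where 14.9% of all tested genes were higher. RPL3, its parent gene, measured 609, 461 and 557 TPM in WT replicates 1 to 3 and 447, 254 and 483 TPM in DKO1 replicates 1 to 3 (log2 fold change -0.50, SE 0.25, adjusted p = 0.174, and adjusted p = 0.03 with the block).

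Other paralogs were already expressed in WT. RPL36AL measured 351, 322 and 399 TPM in WT replicates 1 to 3 and 246, 197 and 462 TPM in DKO1 replicates 1 to 3 (log2 fold change -0.34, SE 0.29, adjusted p = 0.435), and RPL36A 1838, 1745 and 1966 TPM in WT replicates 1 to 3 and 1426, 1189.9 and 1663 TPM in DKO1 replicates 1 to 3 (log2 fold change -0.39, SE 0.15, adjusted p = 0.0888). RPL36AL made up 16.2% ± 0.65 of the pair in WT and 16.9% ± 4.23 in DKO1 (SD, n = 3 each), with DKO1 replicate 3 highest at 21.8%. The paralog RPL22L1 was the more abundant of its pair with RPL22 and measured 1595, 1873 and 1629.6 TPM in WT replicates 1 to 3 and 1069.9, 1436 and 1289 TPM in DKO1 replicates 1 to 3 (log2 fold change -0.43, SE 0.14, adjusted p = 0.0594, and adjusted p = 0.0158 with the block). Its share was 68.0% ± 2.71 in WT and 68.6% ± 4.39 in DKO1, and the groups overlapped.

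RPL7L1 measured 202, 185 and 212 TPM in WT replicates 1 to 3 and 135, 126 and 147 TPM in DKO1 replicates 1 to 3 and fell (log2 fold change -0.55, SE 0.11, adjusted p = 0.00896), as did RPL7. Its share of the pair was 3.15% ± 0.17 in WT and 3.69% ± 0.35 in DKO1, without overlap (exact permutation p = 0.1). RPL26L1 measured 43.6, 58.0 and 51.9 TPM in WT replicates 1 to 3 and 56.0, 53.2 and 59.5 TPM in DKO1 replicates 1 to 3 and was not called (log2 fold change 0.14, SE 0.14, adjusted p = 0.478). Its share of the pair with RPL26, which fell, was 1.14% ± 0.26 in WT and 2.03% ± 0.37 in DKO1, again without overlap (exact permutation p = 0.1). RPS27L, a p53 target, measured 132, 132 and 117 TPM in WT replicates 1 to 3 and 149, 146 and 146 TPM in DKO1 replicates 1 to 3 (log2 fold change 0.21, SE 0.10, adjusted p = 0.158), and its share of the pair with RPS27 was 2.73% ± 0.69 in WT and 3.76% ± 1.25 in DKO1, with overlap (SD, n = 3 for each share).

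To ask whether members departed from the group, the median log2 value of the members was subtracted in each sample before the fit. That median was 10.17, 9.73 and 10.17 in WT replicates 1 to 3 and 9.95, 9.17 and 10.08 in DKO1 replicates 1 to 3. Relative to it, RPL39L and RPL10L, admitted through DKO1, were called higher and no member was lower (limma, adjusted p below 0.05), where 14.4% of all tested genes were higher and 0.573% lower. At an unadjusted p below 0.05, 0 members were lower as well. RPL7 had a log2 fold change of -0.49 relative to the median, with an SE of 0.27 (0.15 before the subtraction). For RPS15, of high GC, the SE was 0.42 (0.67 before). SEs of this size leave departures unresolved, so 0 calls do not show that the members changed equally. With the replicate block, RPL7 (adjusted p = 0.0112) and RPL26 (adjusted p = 0.0437) were lower and the same 2 paralogs higher, against 5.03% and 41.3% of all tested genes. Without DKO1 replicate 2, RPS24 and RPL7 were the 2 members lower relative to the median.

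The level of a member went with the base composition of its coding sequence. Over the 78 members, the Spearman correlation of TPM with coding GC content was between -0.80 and -0.86 in each of the 6 samples, and over 11347 tested protein-coding genes between -0.32 and -0.44. The points share a library, so these are descriptions across genes within a sample. The 10 members of lowest GC (42.5% to 44.8%, among them RPL39, RPS24, RPL7 and RPL5) had a median WT mean of 3865 TPM. The 10 of highest GC (59.6% to 63.0%, among them RPS2, RPL8, RPS15 and RPS28) had a median of 120.3 TPM. Whether this reflects the cells or the libraries was not tested.

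**Figure D3:**
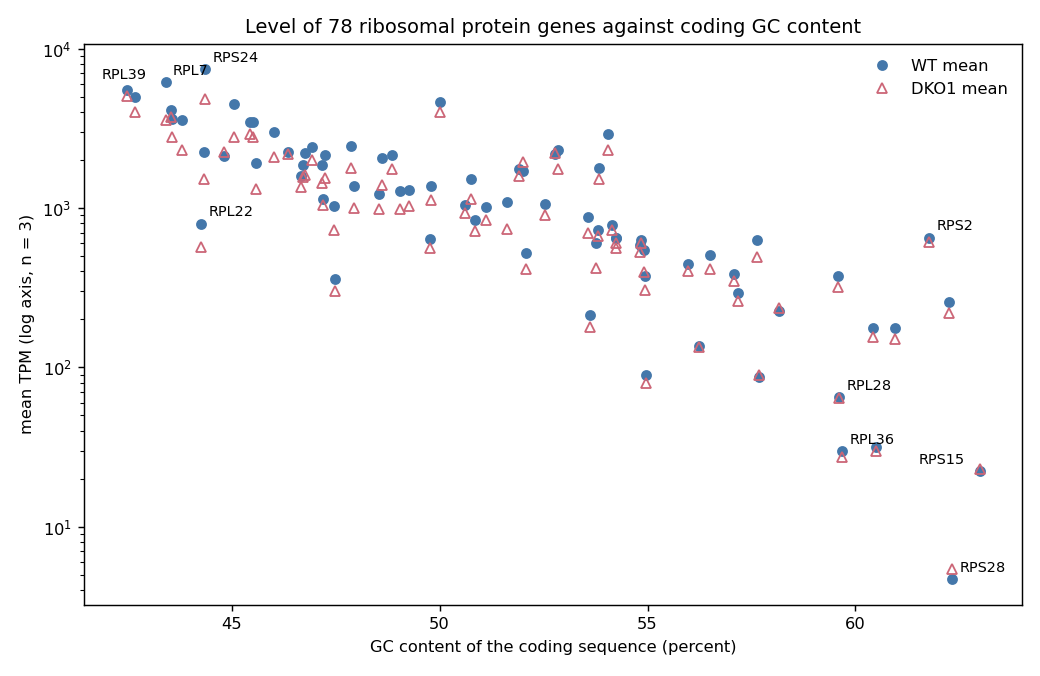
Mean TPM in WT (filled circles) and DKO1 (open triangles) on a log axis against coding GC percent for 78 ribosomal protein genes. The WT level falls from a median of 3865 TPM among the 10 genes of lowest GC to 120.3 TPM among the 10 of highest GC.

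Replicate 2 stood apart in both groups in the same way. Of the 80 tested members, 67 had their lowest value in replicate 2 in both WT and DKO1, compared with 25.9% of all tested genes. Over the 78 members, the deviation of a sample from its group mean correlated with GC at r = 0.69, -0.72 and 0.49 in WT replicates 1 to 3 and at 0.65, -0.76 and 0.67 in DKO1 replicates 1 to 3. The slopes were 0.19, -0.26 and 0.071 log2 units per 10 percentage points of GC in WT and 0.19, -0.54 and 0.35 in DKO1. Genes rich in GC, such as RPS15 and RPS19, were lowest in replicate 2 of both groups.

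**Figure D4:**
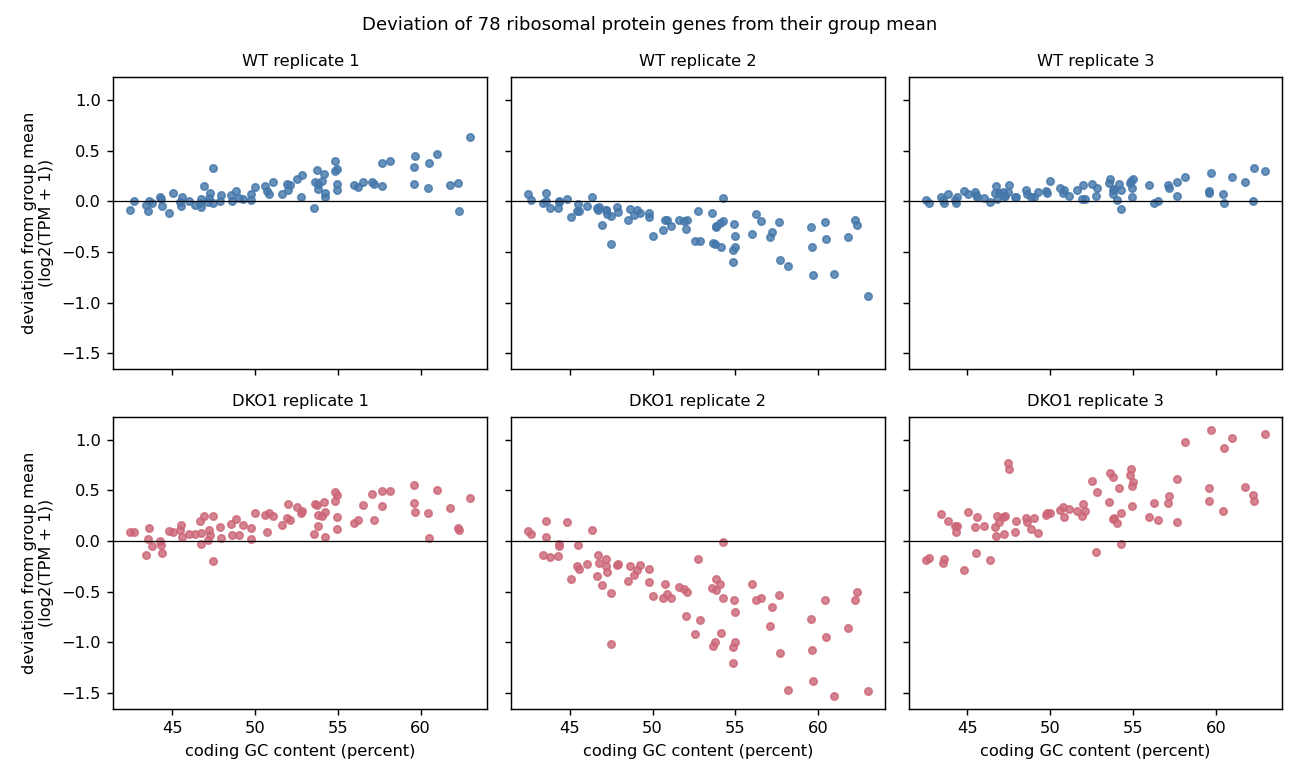
Deviation of each sample from its group mean, in log2(TPM + 1), against coding GC percent for 78 ribosomal protein genes, with 1 panel per sample. The slope is negative in replicate 2 of both groups (-0.26 in WT and -0.54 in DKO1, per 10 points) and positive in the other 4 samples.

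The calls followed the same axis. Of all tested genes, 9.6% were lower (13.4% with the block). Among 41 members with GC at or below the member median of 51.6%, 12 were lower (19 with the block), with a median log2 fold change of -0.34 and a median SE of 0.15. Among the 39 tested members above it, 0 were lower by limma, also at an unadjusted p below 0.05 (4 with the block), with a median of -0.23 and a median SE of 0.31. On chromosome 19, which carries 12 members with a median GC of 59.6%, 0 were called, none reached an unadjusted p below 0.05, and the median was -0.22. An analysis added after the data were seen removed the trend on GC from each sample and kept the block. The trend was taken over deviations from the mean of all 6 samples. A GC trend between WT and DKO1 was therefore removed as well. The fit called 51 members lower, including the same 12, with 19.8% of all tested genes lower and 22.1% higher. The member median was -0.44 (all tested genes -0.01). In that analysis 34 large subunit, 16 small subunit and 1 stalk gene were lower, and the medians were -0.43 and -0.44 in the low-GC and high-GC members.

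Members with and without the terminal pyrimidine motif at a listed start were counted apart. Of the 46 with it, 7 were lower (13 with the block), with a median log2 fold change of -0.27. Of the 18 without it, 3 were lower (7 with the block), with a median of -0.35, and RPL10L was higher. Among all tested genes, 9.6% were lower and 18.8% higher (13.4% and 22.4% with the block). The difference between members with and without the motif was not tested.

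Processed pseudogenes can draw reads from their parent genes. Rows named as pseudogenes of 77 members numbered 1577, with 133 for RPL21 alone. Together they held 2.31, 1.78 and 2.12 TPM per 100 TPM of members in WT and 2.43, 2.00 and 2.88 in DKO1, with overlap (exact permutation p = 0.3). The 3 rows of RPL41 held 1415, 606 and 1212 TPM in WT replicates 1 to 3. In DKO1 replicates 1 to 3 they held 1133, 396 and 1740 TPM. The 133 rows of RPL21 held between 170 and 235 TPM in each sample. Adding all pseudogene rows to their parents left 12 members lower and 2 higher, against 9.67% and 19% of all tested genes.

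Genes that work with the ribosomal proteins were described by lists chosen for their function, with earlier results of these data known. Calls are from the same limma fit (9.6% of all tested genes lower and 18.8% higher, median 0.07). In these lists together, 61 of 276 tested genes were lower and 7 higher. The number lower was 97 with the block. It was 28, 22 and 16 without WT replicate 1, 2 or 3, where 4.44%, 3.85% and 4.04% of all tested genes were lower. It was 39, 53 and 97 without DKO1 replicate 1, 2 or 3, where 6.19%, 8.54% and 15.3% of all tested genes were lower. In the lists with 0 genes higher, none was higher at an unadjusted p below 0.05 either. Of 30 mRNAs of translation factors and other products listed as carrying the terminal pyrimidine motif, 11 fell and 0 rose (16 fell with the block), with a median log2 fold change of -0.37. EIF3E, a subunit of initiation factor eIF3, measured 1048, 1172 and 1052 TPM in WT and 427, 534 and 755 TPM in DKO1 (log2 fold change -0.97, SE 0.20, adjusted p = 0.0109). NPM1, a nucleolar chaperone, measured 4259.8, 4938 and 5059.9 TPM in WT and 1873, 2398 and 3186 TPM in DKO1 (log2 fold change -0.96, SE 0.20, adjusted p = 0.0111). IPO7, an importer of ribosomal proteins, measured 142, 159 and 151 TPM in WT and 57.0, 85.4 and 102 TPM in DKO1 (log2 fold change -0.92, SE 0.21, adjusted p = 0.0148). In each of these the WT and DKO1 samples were apart, and replicate 2 was not the lowest.

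Of 93 tested ribosome biogenesis factors, 27 fell and 0 rose (43 fell with the block), with a median of -0.39. When 1 sample was left out, between 6 (without WT replicate 3) and 48 (without DKO1 replicate 3) fell. Of all tested genes, 4.04% and 15.3% were lower in these 2 fits. RRP15, which acts in maturation of the large subunit, measured 47.9, 58.9 and 61.2 TPM in WT and 8.08, 11.5 and 16.8 TPM in DKO1 (log2 fold change -2.16, SE 0.25, adjusted p = 0.000583). KRR1, a small subunit processome component, measured 277, 319 and 334 TPM in WT and 88.3, 115 and 202 TPM in DKO1 (log2 fold change -1.28, SE 0.28, adjusted p = 0.0132). MAK16, a large subunit assembly factor, measured 113, 123 and 119 TPM in WT and 44.0, 44.6 and 70.4 TPM in DKO1 (log2 fold change -1.18, SE 0.19, adjusted p = 0.00318). All 3 had their highest DKO1 value in replicate 3, still below every WT sample.

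In the RNA polymerase I machinery, which transcribes ribosomal RNA, 4 of 21 genes fell and 0 rose (6 fell with the block), with a median of -0.36. TAF1A, of the promoter selectivity factor, measured 64.6, 76.9 and 62.5 TPM in WT and 28.5, 36.8 and 45.7 TPM in DKO1 (log2 fold change -0.88, SE 0.18, adjusted p = 0.0112). The polymerase subunit gene POLR1F measured 49.3, 52.1 and 48.8 TPM in WT and 21.6, 27.8 and 35.9 TPM in DKO1 (log2 fold change -0.82, SE 0.18, adjusted p = 0.0143), and POLR1B, the second-largest subunit, measured 101, 98.7 and 100.1 TPM in WT and 65.6, 69.0 and 67.6 TPM in DKO1 (log2 fold change -0.56, SE 0.10, adjusted p = 0.0042).

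Chaperones and importers of ribosomal proteins gave 3 of 13 lower and 0 higher (5 lower with the block), with a median of -0.34. TNPO1, an import receptor, measured 225, 260.1 and 239 TPM in WT and 96.8, 139 and 126 TPM in DKO1 (log2 fold change -1.01, SE 0.15, adjusted p = 0.00241). BCCIP, known to bind RPL23, measured 370.3, 419 and 444 TPM in WT and 174, 222 and 347 TPM in DKO1 (log2 fold change -0.78, SE 0.24, adjusted p = 0.045). NAP1L1, which is also in the list of motif-bearing mRNAs, measured 941, 1083 and 936 TPM in WT and 496, 713 and 578 TPM in DKO1 (log2 fold change -0.74, SE 0.15, adjusted p = 0.0107). In all 3 the groups did not overlap.

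Host genes of small nucleolar RNAs gave 4 of 20 lower and 1 higher (7 and 1 with the block), with a median of -0.26. The gene called higher was SNHG14, the imprinted host transcript of the Prader-Willi region, at 0.17, 0.04 and 0.19 TPM in WT and 4.37, 8.05 and 6.24 TPM in DKO1. It reached the filter only through DKO1, so its values are a description. SNHG5 measured 363, 361 and 412 TPM in WT and 262, 228 and 279 TPM in DKO1 (log2 fold change -0.56, SE 0.12, adjusted p = 0.011), and EPB41L4A-AS1 57.6, 68.6 and 65.5 TPM in WT and 42.0, 51.5 and 40.5 TPM in DKO1 (log2 fold change -0.51, SE 0.14, adjusted p = 0.0286). Among 8 ribosomal proteins and paralogs with other symbols, 2 fell (4 with the block) and 0 rose, with a median of -0.28. Besides RPL7L1 this was RSL24D1, a biogenesis factor related to RPL24, at 261, 306 and 269 TPM in WT and 129, 162 and 187 TPM in DKO1 (log2 fold change -0.81, SE 0.15, adjusted p = 0.00698).

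Proteins of the mitochondrial ribosome, encoded in the nucleus, gave 9 of 75 lower and 3 higher (13 and 4 with the block), with a median of -0.13. MRPL42 measured 267, 299.9 and 285 TPM in WT and 121, 161 and 167 TPM in DKO1 (log2 fold change -0.93, SE 0.14, adjusted p = 0.00275) and MRPL1 126, 153 and 145 TPM in WT and 62.4, 83.6 and 111 TPM in DKO1 (log2 fold change -0.75, SE 0.21, adjusted p = 0.031). MRPL53 was higher, at 6.17, 6.82 and 8.83 TPM in WT and 12.8, 14.1 and 9.76 TPM in DKO1 (log2 fold change 0.68, SE 0.20, adjusted p = 0.0382). With the GC trend removed and the block, MRPL53 was not called (adjusted p = 0.181), and the list had 0 genes higher and 21 lower. The share of lower calls among them was nearer that of all tested genes than among biogenesis factors, and this difference was not tested.

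Of 19 tested regulators of growth and of the nucleolar stress response, 2 fell and 3 rose (5 and 5 with the block), with a median of 0.16. These shares are near the 9.6% lower and 18.8% higher of all tested genes. MYC, a transcription factor known to drive ribosome biogenesis, measured 140.4, 149.7 and 120.3 TPM in WT and 71.1, 64.1 and 58.9 TPM in DKO1 (log2 fold change -1.07, SE 0.13, adjusted p = 0.000762). CDKN1A, a cell cycle inhibitor and p53 target, rose and measured 2.42, 1.94 and 2.23 TPM in WT and 10.2, 6.57 and 8.50 TPM in DKO1 (log2 fold change 1.54, SE 0.19, adjusted p = 0.000779). DEPTOR, an mTOR inhibitor, rose and measured 1.23, 1.28 and 1.03 TPM in WT and 2.48, 3.13 and 2.14 TPM in DKO1 (log2 fold change 0.71, SE 0.16, adjusted p = 0.0141). Their part in the lower ribosomal protein values was not tested.

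**Figure D5:**
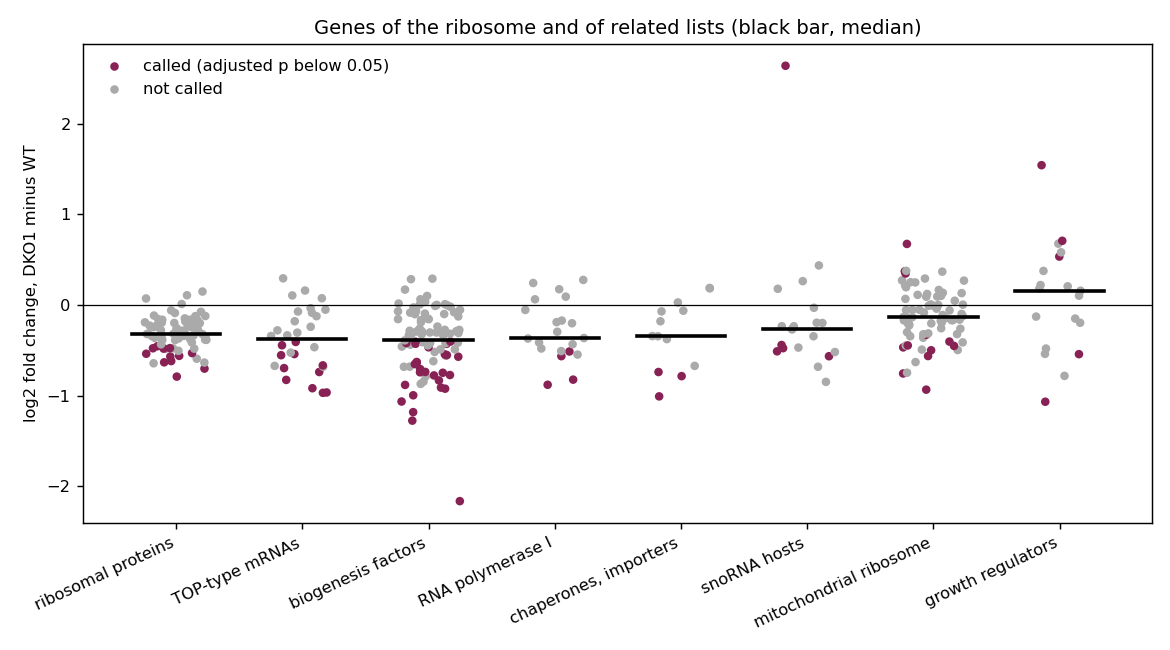
Log2 fold change (DKO1 minus WT) of 78 ribosomal protein genes and of the tested genes in 7 related lists, with called genes in colour and a bar at each median. The median is -0.39 for biogenesis factors, -0.13 for mitochondrial ribosomal proteins and 0.16 for growth regulators, where that of all tested genes is 0.07.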

How the data were processed

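RNA of 6 samples (3 WT and 3 DKO1) was measured as messenger RNA libraries. The deposited values are TPM per gene, made by the authors. The submitters' processing notes name hg19 and GRCh37, STAR 2.5.3a, RSEM 1.2.21, edgeR 3.12.1, Trim Galore 0.4.0 and FastQC, with no role or order. TPM keeps no depth, and the counting of reads shared with pseudogenes is not given in the sources used here. Symbols (52338 of 57820 human genes) and coding GC came from reference tables and gene models on GRCh38, matched by Ensembl identifier. The 77 spike-in rows stayed out of every test.

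The test was limma 3.58.1 (R 4.3.3) with a variance trend on log2(TPM + 1), for the 13604 genes that reached 1 TPM in 3 or more samples, adjusted together by Benjamini-Hochberg and called below 0.05. SEs are limma's, all tests are two-sided, and fold changes understate those of low genes. It was tested on simulated data. Summed shares were compared by exact permutation (SciPy 1.17.1). The members and lists were chosen with earlier results of these data known. The genes named are the 6 members of highest and 5 of lowest level, up to 8 called in each direction, paralogs with their parents, members of known roles, and up to 3 called genes per list with the largest change. Values of a few of these genes are not reported here.

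Replicate numbers are shared between the groups in the labels. Deviations from the group means correlated at 0.35, 0.57 and 0.27 between same-numbered samples over all tested genes, and at -0.38 to 0.13 between differently numbered ones. Over the 78 members, same-numbered samples correlated at 0.75, 0.96 and 0.66. There WT replicate 1 with DKO1 replicate 3 gave 0.82, and WT replicate 3 with DKO1 replicate 1 gave 0.48, so only replicate 2 stood apart. The labels name no pairing, so fits with the numbers as a block are alternatives. Alternatives changed the pseudocount, filter, scaling, trend, block, pseudogene handling and the samples used.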

Additional observations from a re-analysis of the deposited data

How the results depend on the processing

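The count of 12 members called lower stayed within 1.5 times under a pseudocount of 0.1, a mean of at least 5 TPM and no variance trend. It also did under median-ratio scaling, quantile normalization, rescaling without mitochondrially encoded rows, and pseudogene TPM added to the parent. The share of all tested genes called lower, 9.6% in the main fit, ran from 7.65% (rescaling) to 14.3% (quantile normalization) in these settings. With quantile normalization 8 of 80 members were lower, which is not above that share. The count was 7 without a filter (3.72% of all tested genes), 23 with the replicate block (13.4%) and 2 to 18 when 1 sample was left out (3.85% to 15.3%). In alternatives added after the data were seen, it was 26 with the GC trend removed (14.4%) and 51 with that and the block (19.8%). It was 35 with median-ratio scaling and the block (20.7%), and 8 with both replicates numbered 2 left out (3.62%). Relative to the member median, 0 members were lower, where 0.573% of all tested genes were. With the block (pairing by replicate number) 2 members were lower, against 5.03% of all tested genes. The number was 0 to 2 when 1 sample was left out, 1 with the summed TPM as centre and 4 with both replicates numbered 2 left out. The 2 members higher became 4 with the GC trend removed and the block. The counts in the related lists are given with the share of all tested genes in parentheses. The 61 genes lower (9.6%) became 97 with the block (13.4%) and 99 with the GC trend removed (14.4%). The number lower was 135 with that and the block (19.8%), and 125 with median-ratio scaling and the block (20.7%). It was 20 with both replicates numbered 2 left out (3.62%) and 16 to 97 when 1 sample was left out (3.85% to 15.3%). The 7 higher (18.8%) became 4 with median-ratio scaling (16.8%), a mean filter of 5 TPM (12.7%) or the GC trend removed (18.5%). The number higher was also 4 with both replicates numbered 2 left out (14.9%). It was 2 to 13 when 1 sample was left out (12.5% to 20.9%). The cause of these moves was not tested. The summed share differed by -1.72 to -3.00 percentage points when 1 sample was left out, and no member call changed its direction in these alternatives. RPL5 was not called after quantile normalization, and RPS27A not without WT replicate 3. Depth is unknown, so the precision of low genes such as RPS28 and RPL3L cannot be stated.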
